A study of Mus musculus with 6 samples.

Results

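The cell division machinery was followed here through 40 genes of DNA replication and mitosis, chosen by gene symbol, out of 26110 genes listed for cells sorted from the muscularis externa (ME) of the small bowel. Of these, 18 act at the G1/S transition or in S phase and 22 act in G2 or mitosis. Bulk RNA-seq gave 6 libraries. MHCII hi CX3CR1- cells and MHCII hi CX3CR1+ cells gave 3 libraries each, and the question was how these populations differ in their transcriptomes. All mice were naive, received no treatment and carried the genotype CX3CR1+/GFP, in which 1 Cx3cr1 allele is replaced by GFP, so the sort by GFP rests on the Cx3cr1 promoter and both populations have a single intact allele. The age of the mice was not given in the sources used here. Tissue of 6 mice was pooled for each group, and nothing says that the libraries came from separate pools, so p-values measure only the spread between these libraries, which may be technical. The labels call both populations dendritic cells, whereas the study treats them as macrophages.

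Dividing cells switch on replication genes and mitosis genes in separate waves. At the G1/S transition, cyclin E with its kinase releases E2F transcription factors from the retinoblastoma protein, and E2F sites stand in the promoters of many replication genes. Cdc6 and Cdt1 then load the ring of Mcm2 to Mcm7, the replicative helicase, onto origins. Genes of G2 and mitosis are held down in resting cells by the DREAM complex at the cell cycle genes homology region (CHR, TTTGAA) and are driven later by NF-Y, which binds CCAAT boxes. In the gut wall, macrophages of the ME are known as long-lived cells that divide rarely, whereas crypt epithelium divides constantly.

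A RefSeq promoter window on GRCm38.p6, from 250 bases before the start of the gene to 50 bases after it, was at hand for 33 of the 40 genes. Both strands were searched. An E2F word was TTTCCCGC, TTTGGCGC, TTTCGCGC or TTTGCCGC, and a gene counted if any of its windows held a word. E2F words were found for 7 of 15 G1/S and S phase genes and 1 of 18 G2 and mitosis genes. The share was 2.60% of all genes with a window. The word TTTGAA was found for 2 of 15 and 13 of 18 genes, against 20.2% of all genes. The word CCAAT was found for 9 of 15 and 16 of 18 genes, against 41.1% of all genes. Bases -200 to -31 are printed 5′ to 3′ along the gene for 4 subunits of the helicase, because Mcm3 parted from the others below, and for Cdk1 and Mki67 as examples of mitosis genes. Capitals mark E2F words, TTTGAA and CCAAT on either strand, and E2F words may overlap each other.
Mcm3 (chr1:20820343-20820512, minus strand): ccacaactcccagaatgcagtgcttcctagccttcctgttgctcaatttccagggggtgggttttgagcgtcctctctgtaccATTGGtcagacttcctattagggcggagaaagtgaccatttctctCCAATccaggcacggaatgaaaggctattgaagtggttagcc
Mcm2 (chr6:88898811-88898980, minus strand): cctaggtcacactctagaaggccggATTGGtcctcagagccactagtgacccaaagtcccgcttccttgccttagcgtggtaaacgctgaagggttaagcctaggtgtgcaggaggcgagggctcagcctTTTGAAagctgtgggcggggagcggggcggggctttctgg
Mcm5 (chr8:75109309-75109478, plus strand): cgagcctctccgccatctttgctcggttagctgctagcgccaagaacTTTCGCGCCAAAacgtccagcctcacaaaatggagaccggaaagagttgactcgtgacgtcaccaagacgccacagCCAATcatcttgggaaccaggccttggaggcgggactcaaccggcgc
Mcm6 (chr1:128359736-128359905, minus strand): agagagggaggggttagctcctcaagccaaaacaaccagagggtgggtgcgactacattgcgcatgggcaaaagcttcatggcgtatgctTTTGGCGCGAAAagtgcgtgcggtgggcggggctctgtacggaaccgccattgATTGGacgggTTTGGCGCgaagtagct
Cdk1 (chr10:69352943-69353112, minus strand): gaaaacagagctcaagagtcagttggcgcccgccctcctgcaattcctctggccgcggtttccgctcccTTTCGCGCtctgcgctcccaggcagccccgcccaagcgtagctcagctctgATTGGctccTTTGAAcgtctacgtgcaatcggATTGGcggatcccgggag
Mki67 (chr7:135716410-135716579, minus strand): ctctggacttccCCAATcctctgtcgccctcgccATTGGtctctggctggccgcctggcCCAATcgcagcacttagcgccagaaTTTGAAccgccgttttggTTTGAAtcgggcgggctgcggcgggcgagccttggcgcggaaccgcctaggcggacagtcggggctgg
The slice of Mcm3 shows no E2F word because both of its E2F words lay after the start, at bases 20 and 39. Mcm5 and Mcm6 carry E2F words in capitals, and Mcm2 carries TTTGAA. Cdk1 has all 3 kinds of word and Mki67 has TTTGAA and CCAAT. The printed letters show that the words are there, and they say nothing of binding in these cells.

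The libraries held about 5346379 to 17616758 reads, estimated from the smallest step of the values, and 3 reads corresponded to normalized values of 1.39 to 5.36. Genes encoded by the mitochondrial genome took 47.5 to 54.9% of the signal in CX3CR1- libraries and 18.1 to 21.2% in CX3CR1+ libraries. The 13 macrophage markers summed to 11452 to 14200 in CX3CR1- and 59236 to 66186 in CX3CR1+ libraries, and 13 of 13 were lower in CX3CR1-. The 10 markers of conventional dendritic cells summed to 4310 to 4829 in CX3CR1- and 531 to 540 in CX3CR1+ libraries. All 10 were higher in CX3CR1- without overlap, and 8 of them passed the test described below. Enterocyte markers summed to 16267 to 29319 in CX3CR1- and 16.03 to 42.9 in CX3CR1+ libraries, with 8 of 8 higher in CX3CR1-. B cell markers (924 to 1255 against 113 to 132) and fibroblast markers (3741 to 11031 against 229 to 335) were also higher in CX3CR1-. All 7 and all 6 genes had a positive log2 fold change, and 6 of 7 and 5 of 6 passed that test.

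Most cell cycle genes did not pass the test between the populations. Of the 40 genes, 39 had a mean of at least 10 and were tested. Ccne1 was higher in CX3CR1- cells, and Mcm3, E2f1 and Tpx2 were lower, where passing means a change of 2-fold or more with an adjusted p no larger than 0.05 (limma on log2(value + 1), Benjamini-Hochberg over all 17812 genes tested). These 4 genes were 10.3% of the genes tested, whereas 20.4% of all genes passed. Where no other measure is named, counts of higher or lower genes below are of genes that passed. In the direction of CX3CR1-, 1 of 39 passed against 12.2% of all genes, and in the direction of CX3CR1+, 3 of 39 passed against 8.15%. The median log2 fold change, CX3CR1- minus CX3CR1+, was -0.17 over the 39 genes and -0.0035 over all genes. Of the 39 genes, 25 had a negative and 14 a positive log2 fold change. An unadjusted p of at most 0.05 was reached by 12 of the 39 (10 lower, 2 higher). Of all 17812 genes, 35.4% reached it (2998 lower, 3306 higher). The values of the populations did not overlap for 11 of the 39 (9 lower, 2 higher) and for 40% of all genes (3520 lower, 3612 higher). For a gene that differs, bulk samples cannot tell a different share of cycling cells from a different amount of its RNA per cell.

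**Figure D1:**
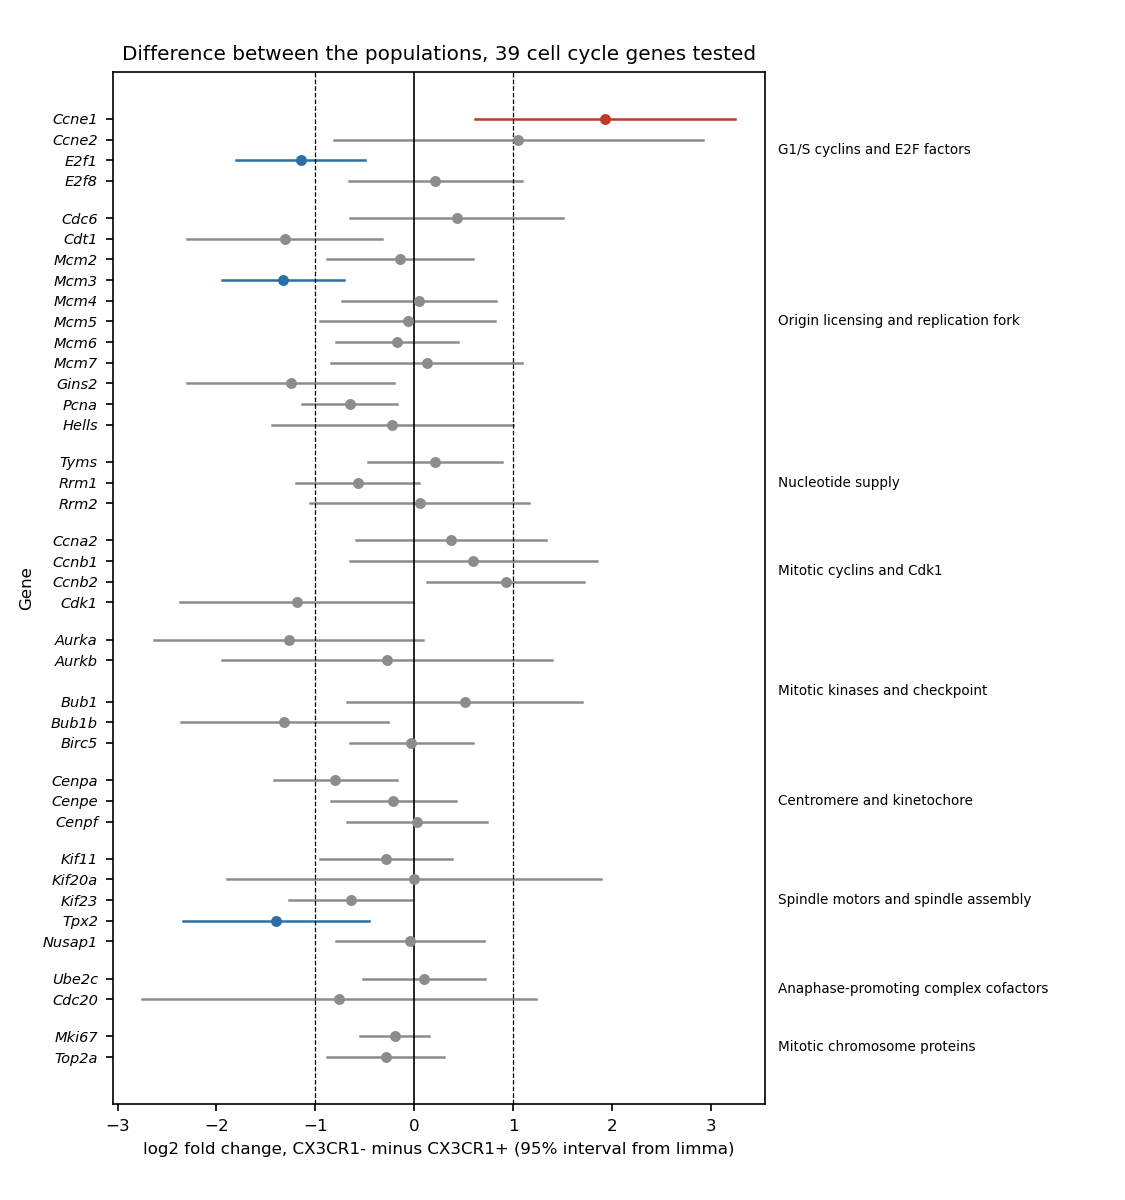
Log2 fold change (points) of each of the 39 genes tested, CX3CR1- minus CX3CR1+, with lines for the 95% confidence interval from limma, genes grouped by role, and red or blue for genes that were higher or lower in CX3CR1-. Ccne1 at 1.93 stands highest and Tpx2 at -1.40 lowest, and most intervals include 0.

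**Figure D2:**
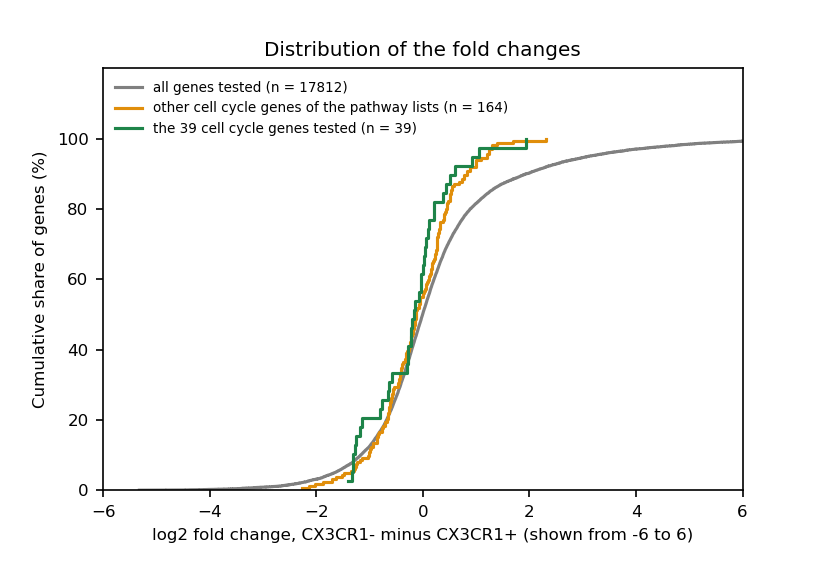
Cumulative share of genes (percent) against the log2 fold change, CX3CR1- minus CX3CR1+, for all 17812 genes tested, the 164 other cell cycle genes tested and the 39 genes, with the far right tail left out. The 39 genes lie between -1.40 and 1.93, whereas the curve of all genes runs on past the right edge.

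The libraries set limits on how small a difference could be seen. The 95% interval of the log2 fold change lay within -1 to 1 for 13 of the 39 genes (33.3%), against 23.5% of all genes, and within -0.5 to 0.5 for 0 genes. The median distance from the estimate to either end of the interval was 0.88 on the log2 scale over the 39 genes. The SD of the log2 values was larger in CX3CR1- than in CX3CR1+ libraries for 30 of 39 genes (76.9%), with medians of 0.48 and 0.33, and it was larger for 70.0% of all genes. No single CX3CR1- library held the highest values, since replicates 1, 2 and 3 were each highest in their population for 11, 16 and 13 of the 40 genes.

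**Figure D3:**
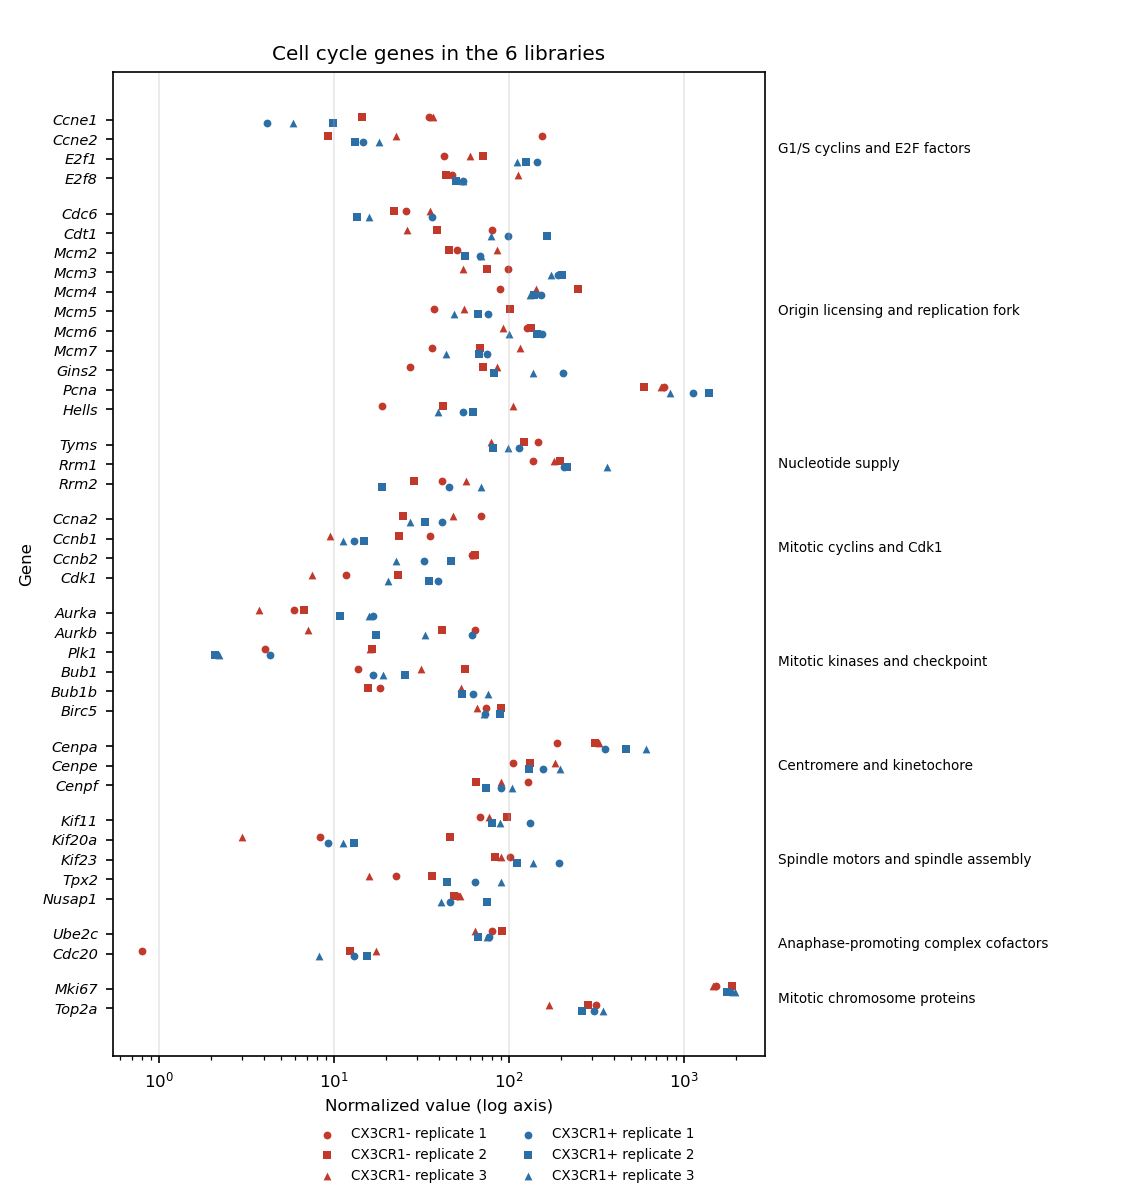
Normalized values of the 40 genes (rows, grouped by role) on a log axis, with 1 point for each of the 6 libraries. Points of Mcm3, E2f1 and Tpx2 separate by population, with CX3CR1+ to the right, while most rows mix, and Pcna and Mki67 stand at the far right.

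The G1/S cyclins and E2F factors held 2 of the 4 genes that passed, in opposite directions. Ccne1 (chromosome 7, 38097984 to 38107534 on the minus strand of GRCm38), the cyclin E that opens S phase with Cdk2, had values of 35.2, 14.5 and 37.0 in CX3CR1- and 4.13, 9.95 and 5.84 in CX3CR1+ libraries. All CX3CR1- values lay above all CX3CR1+ values, although the CX3CR1+ values stood close to the level of a few reads. Its log2 fold change was 1.93 (SE 0.59, adjusted p = 0.0378 by limma). E2f1 (chromosome 2, 154559407 to 154569892, minus strand), an activator of replication genes and itself an E2F target, had values of 42.8, 71.5 and 59.8 in CX3CR1- and 146, 125.5 and 112 in CX3CR1+ libraries. The groups did not overlap, and the log2 fold change was -1.15 (SE 0.29, adjusted p = 0.0168 by limma). Ccne2, the second E cyclin, was at 156, 9.24 and 22.7 against 14.6, 13.2 and 18.2. Only CX3CR1- replicate 1 stood high, so the populations overlapped and the adjusted p was 0.412 by limma. Ccne2 shares 15.6% of its 31-base words with Ints8, which overlaps it on the other strand, and the library kit did not keep the strand. E2f8, a repressor that closes the E2F wave, was at 68.1 ± 39.02 in CX3CR1- and 53.3 ± 2.64 in CX3CR1+ cells (SD, n = 3 each) and did not pass.

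Among the 11 genes of origin licensing and the replication fork, 1 passed. Mcm3 (chromosome 1, 20802968 to 20820312 on the minus strand of GRCm38), a subunit of the helicase ring, had values of 99.0, 75.3 and 55.2 in CX3CR1- and 191, 201 and 175 in CX3CR1+ libraries. Every CX3CR1- value was below every CX3CR1+ value, and the exact two-sided permutation p was 0.1, the smallest that 3 libraries against 3 can give. The log2 fold change was -1.33 (SE 0.28, 95% interval -1.95 to -0.71, adjusted p = 0.00600 by limma). Mcm3 shares no 31-base word with another annotated gene.

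The other subunits of the ring, which assemble with Mcm3 in equal numbers, did not pass. Their log2 fold changes were -0.14 for Mcm2, 0.05 for Mcm4, -0.07 for Mcm5, -0.17 for Mcm6 and 0.13 for Mcm7, with adjusted p from 0.701 to 0.938 by limma. The intervals of Mcm2, Mcm4, Mcm5 and Mcm6 lay within -1 to 1, and that of Mcm7 reached 1.09. Mcm4 was at 88.7, 249 and 143 in CX3CR1- and at 152, 140 and 133 in CX3CR1+ libraries, so the scatter among CX3CR1- libraries exceeded any difference between the populations. Within the summed values of Mcm2 to Mcm7, Mcm3 took 22.5, 11.2 and 10.05% in CX3CR1- and 26.5, 29.7 and 30.6% in CX3CR1+ libraries. CX3CR1- replicate 1 lay nearest to the CX3CR1+ libraries, but the groups did not overlap. Mcm7 shares 33.4% of its 31-base words with other genes, mostly the gene Gm5487, so its value is uncertain.

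**Figure D4:**
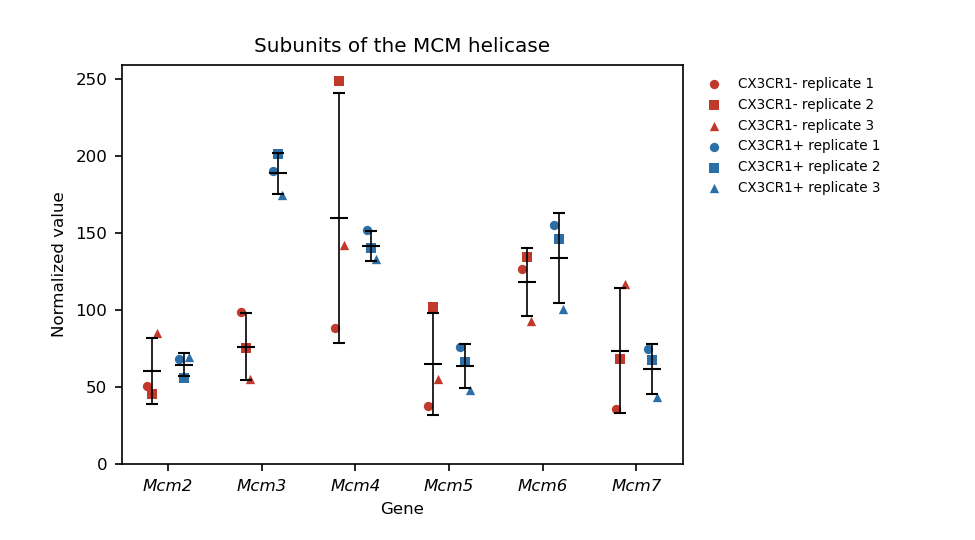
Normalized values of Mcm2 to Mcm7 in each library (points) with the mean and SD of the 3 libraries of each population. Mcm3 is the subunit whose CX3CR1- values (55.2 to 99.0) lie clear of the CX3CR1+ values (175 to 201).

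Cdt1, Gins2 and Pcna had negative log2 fold changes that missed the threshold. Cdt1, the loading factor that is destroyed once S phase begins, was at 80.3, 39.1 and 26.2 against 99.6, 167 and 79.4. The highest CX3CR1- library thus lay just above the lowest CX3CR1+ library, and the log2 fold change was -1.31 (SE 0.44, adjusted p = 0.0558 by limma). Gins2, a part of the active helicase, was at 61.6 ± 30.7 against 142 ± 61.6 (SD, n = 3), which is -1.25 on the log2 scale (adjusted p = 0.0828 by limma), and 66.2% of its 31-base words also occur elsewhere, most of them in Gse1 on the opposite strand. Pcna, the sliding clamp of the DNA polymerases, was at 778, 598 and 740 against 1134, 1408 and 840. Its groups did not overlap, but the change was small, at -0.65 on the log2 scale (adjusted p = 0.0521 by limma). Cdc6 (27.8 ± 6.88 against 22.0 ± 12.5) and the chromatin remodeller Hells (55.5 ± 45.0 against 52.3 ± 11.5) overlapped between the populations.

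The 3 genes of nucleotide supply did not pass. Rrm1, the large subunit of ribonucleotide reductase, was at 137, 197 and 182 in CX3CR1- and 207, 216 and 365 in CX3CR1+ libraries. These groups did not overlap, and the log2 fold change was -0.57 (adjusted p = 0.172 by limma). Its S phase partner Rrm2 was at 42.4 ± 14.1 and 44.7 ± 25.4, and Tyms, which makes thymidylate, at 117 ± 34.3 and 98.4 ± 17.2 (SD, n = 3 each).

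Mitotic cyclins and their kinase had log2 fold changes of both signs, and 0 of 4 passed. Ccnb2, a B-type cyclin, was at 61.6, 64.4 and 62.8 in CX3CR1- and 32.8, 46.8 and 22.7 in CX3CR1+ libraries. Its CX3CR1- libraries were nearly equal and lay above all CX3CR1+ libraries, with a log2 fold change of 0.92 (SE 0.36, adjusted p = 0.0887 by limma). Cdk1, the kinase that B-type cyclins activate, was at 11.7, 23.4 and 7.47 against 39.6, 34.9 and 20.3. The groups overlapped by 1 library each, with a log2 fold change of -1.19 (SE 0.53, adjusted p = 0.138 by limma). Ccna2 (47.5 ± 22.4 against 34.0 ± 7.08) and Ccnb1 (22.9 ± 13.0 against 13.1 ± 1.82) overlapped between the populations. Ccnb1 shares 27.8% of its 31-base words with other genes, the pseudogene Ccnb1-ps first.

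Of the mitotic kinases and checkpoint genes, 5 were tested and 0 passed. Bub1b, a kinase-like protein of the spindle checkpoint, had the largest fitted log2 fold change of these 5, with values of 18.4, 15.8 and 53.4 in CX3CR1- and 62.6, 54.2 and 76.6 in CX3CR1+ libraries. CX3CR1- replicate 3 came within 1 unit of the lowest CX3CR1+ library, and the log2 fold change was -1.31 (SE 0.47, adjusted p = 0.0699 by limma). Aurka, the spindle pole kinase, was at 5.91, 6.75 and 3.76 against 16.8, 10.8 and 15.98. The groups did not overlap, but the values were low. The ratio of its means, 0.377, was further from 1 than that of Bub1b, 0.453, while the log2 fold change after adding 1 was -1.27 (SE 0.61, adjusted p = 0.168 by limma). Aurkb (37.6 ± 28.7 against 37.5 ± 22.2) and Birc5 (76.9 ± 12.9 against 78.2 ± 9.48), partners in the chromosomal passenger complex, had nearly equal means, and the interval of Birc5 ran from -0.65 to 0.59. Bub1 was at 34.0 ± 21.5 and 20.6 ± 4.63. Plk1, the kinase that drives entry into mitosis, was the untested gene, at 4.05, 16.7 and 16.2 in CX3CR1- and 4.31, 2.09 and 2.20 in CX3CR1+ libraries. Its CX3CR1+ values in replicates 2 and 3 corresponded to 3 reads or fewer.

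Among the 5 spindle genes, 1 passed, the only gene of G2 and mitosis to do so in the reported fit. Tpx2 (chromosome 2, 152847964 to 152895321 on the plus strand), which activates Aurka and nucleates microtubules, was at 22.6, 36.5 and 15.97 in CX3CR1- and 64.4, 44.6 and 90.8 in CX3CR1+ libraries. The groups did not overlap, and the log2 fold change was -1.40 (SE 0.42, adjusted p = 0.0364 by limma). Kif23, a motor of cytokinesis, was at 92.2 ± 9.04 against 148 ± 42.5 without overlap (adjusted p = 0.128 by limma). Kif11 was at 81.3 ± 15.3 and 101 ± 27.8, and Nusap1 at 50.7 ± 2.10 and 54.0 ± 18.2. Kif20a was at 8.35, 46.5 and 2.99 against 9.25, 13.1 and 11.3. Only its CX3CR1- replicate 2 lay above the CX3CR1+ libraries, and the value of CX3CR1- replicate 3 corresponded to 3 reads.

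Centromere genes, cofactors of the anaphase-promoting complex and mitotic chromosome proteins had 0 of 7 genes that passed. Cenpa, the histone H3 variant of centromeres, was at 189, 312 and 329 in CX3CR1- and 357, 469 and 612 in CX3CR1+ libraries. The groups did not overlap, with a log2 fold change of -0.80 (SE 0.28, adjusted p = 0.0634 by limma). Cenpe (141 ± 40.5 against 161 ± 32.8) and Cenpf (94.5 ± 32.0 against 90.1 ± 15.2) had intervals within -1 to 1. Ube2c was at 78.7 ± 13.5 and 72.9 ± 5.48, and Cdc20, which starts anaphase, was at 0.803, 12.5 and 17.5 against 13.1, 15.6 and 8.29. Cdc20 in CX3CR1- replicate 1 was under 3 reads, and the interval of its log2 fold change, from -2.75 to 1.24, left its direction undetermined. Mki67, the marker of cycling cells that coats mitotic chromosomes, was at 1538, 1903 and 1477 in CX3CR1- and 1843, 1780 and 1979 in CX3CR1+ libraries. The highest CX3CR1- library lay inside the range of the CX3CR1+ libraries, with a log2 fold change of -0.20 (95% interval -0.54 to 0.15, adjusted p = 0.417 by limma). Top2a, which untangles replicated DNA, was at 317, 283 and 171 against 307, 263 and 348 (log2 fold change -0.29, adjusted p = 0.481 by limma).

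Levels per kilobase of the longest annotated transcript differed widely among the 40 genes. Pcna was highest, at 465 normalized units per kilobase in CX3CR1- and 743 in CX3CR1+ cells, followed by Cenpa (189 and 327) and Mki67 (163 and 186). Aurka (2.87 and 7.63), Cdk1 (3.24 and 7.22) and Plk1 (5.59 and 1.30) were near the bottom of this scale. Genes of mitosis that are low here thus stood beside Mki67, which was high in every library. In all, 12 of the 40 genes shared at least 10% of their 31-base words with other genes, among them Pcna (23.3%, the pseudogene Pcna-ps2 first), so their levels carry an uncertainty that the replicates do not show. Ccne1, E2f1, Mcm3 and Tpx2 shared 0.0753, 1.79, 0 and 3.32%.

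The summed normalized values of the 40 genes were 4946, 5413 and 4972 in CX3CR1- and 6490, 6378 and 6403 in CX3CR1+ libraries. The sums did not overlap, and the ratio of the means was 0.796. Scaled to 1000000 units of non-mitochondrial signal, the sums were 898 ± 25.5 and 1002 ± 34.7 (SD, n = 3 each), a ratio of 0.896. The ratio of the summed values was 0.735 for the G1/S and S phase genes and 0.840 for the G2 and mitosis genes, and the G2 and mitosis sums overlapped between the populations. Relative to the non-mitochondrial signal these ratios were 0.832 and 0.942, and the sums of both groups of genes overlapped. Mki67 and Pcna weighed most in these sums, and without them the ratio was 0.807.

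Markers of some other cells of the gut wall differed between the populations beside these genes. Smooth muscle markers did not, with sums of 918 to 2675 in CX3CR1- and 1954 to 2745 in CX3CR1+ libraries. Crypt epithelium markers summed to 1176 to 1720 in CX3CR1- and 36.8 to 59.99 in CX3CR1+ libraries, with 7 of the 8 tested higher in CX3CR1-. Most of this sum came from Krt8 (499 ± 119 in CX3CR1- cells) and Epcam (276 ± 27.0), which all gut epithelium expresses, and from Smoc2 (305 ± 201). The stem cell genes Lgr5 and Olfm4 were low, at 8.69 ± 6.93 and 10.9 ± 1.15 and at 13.1 ± 10.01 and 0 (SD, n = 3). Axin2 (53.8 ± 26.6 against 3.68 ± 0.73, log2 fold change 3.44) and Smoc2 (log2 fold change 4.24) of the same list were higher in CX3CR1-. Smoc2 was at 260, 131 and 525 in CX3CR1- replicates 1, 2 and 3, where the fibroblast markers summed to 6643, 3741 and 11031. Krt8 and Epcam were instead highest in replicate 1. Which cells gave the Smoc2 values was not tested. The sum does not tell dividing crypt cells from other epithelium. Germinal centre B cell markers summed to 697 to 890 and 1140 to 1441, with 1 of 6 higher in CX3CR1-. The part of these cells, of the mitochondrial share and of depth in the values of the cell cycle genes was not tested.

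**Figure D5:**
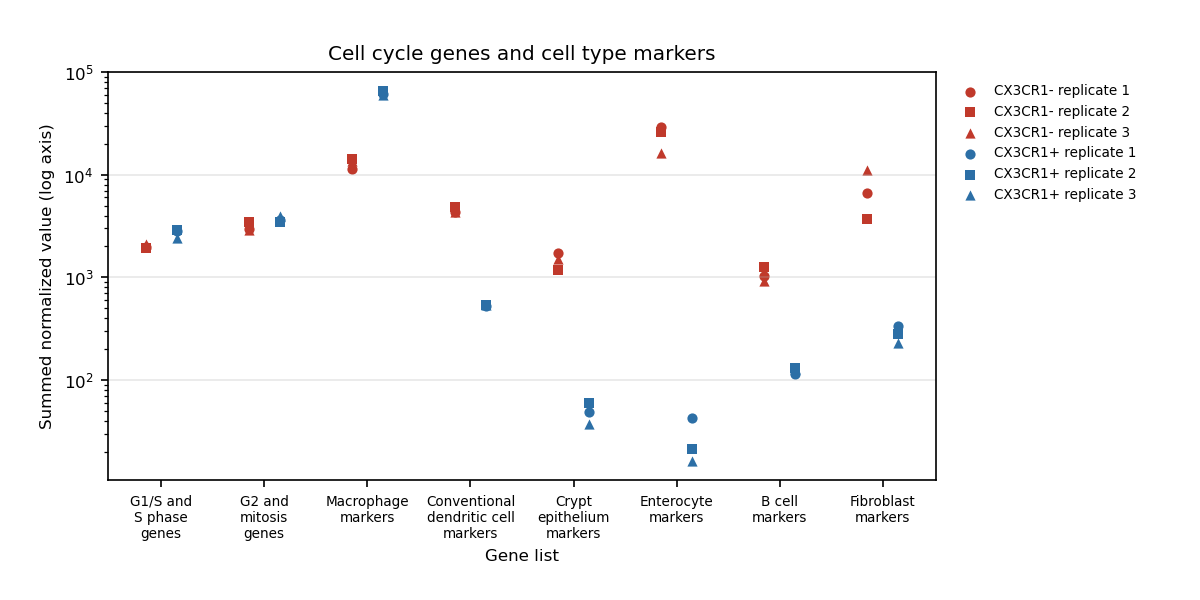
Summed normalized values in each library (points, log axis) for the cell cycle genes of G1/S and S phase, those of G2 and mitosis, and 6 lists of cell type markers. The G1/S and S phase sums (1935 to 2094 in CX3CR1- and 2409 to 2925 in CX3CR1+) do not overlap but lie close. The G2 and mitosis sums (2879 to 3477 and 3453 to 3994) overlap, whereas the sums of these 6 marker lists stand far apart.

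A wider set of 174 genes in 7 lists described the rest of the pathway, of which 164 were tested. In all, 5 were higher and 12 lower in CX3CR1- cells (10.4%, against 20.4% of all genes), with a median log2 fold change of -0.12. Among 46 other replication genes, Dut, which removes dUTP, was higher (63.7 ± 17.7 against 26.5 ± 3.83, log2 fold change 1.201). Pola1, the catalytic subunit of DNA polymerase alpha, was lower (148 ± 25.2 against 352 ± 47.4, log2 fold change -1.25), and so was Chaf1b of the histone chaperone CAF-1 (25.3 ± 5.62 against 107 ± 56.2, log2 fold change -1.88). Among 55 other mitosis genes tested, the phosphatase Cdc25b was higher (30.3 ± 3.87 against 9.18 ± 4.04, log2 fold change 1.69), whereas the cytokinesis gene Anln (-1.24), the separase gene Espl1 (-1.03) and the spindle gene Ckap2 (-1.70) were lower.

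Regulators of the G1 phase included 3 abundant genes that were lower in CX3CR1- cells. Of 13 G1 cyclins, kinases and phosphatases tested, 0 were higher and 2 were lower. Cdk6, a kinase that phosphorylates the retinoblastoma protein, was at 466, 570 and 357 in CX3CR1- and 2127, 2231 and 2250 in CX3CR1+ libraries, with a log2 fold change of -2.27 (SE 0.19, adjusted p = 2.54e-05 by limma). Its cyclin partner Ccnd1 was at 692, 680 and 642 against 2094, 1854 and 1794, with a log2 fold change of -1.51 (SE 0.15, adjusted p = 7.57e-05 by limma). Both groups were far apart compared with their spread, although Ccnd1 shares 22.3% of its 31-base words with the overlapping gene LTO1. Among 15 CDK inhibitors and pocket proteins tested, Cdkn1a, which encodes p21, was lower (2732 ± 678 against 6858 ± 817, log2 fold change -1.35). Cdkn2b, which encodes the Cdk4 and Cdk6 inhibitor p15, was higher at 18.8, 23.2 and 13.96 against 3.70, 4.10 and 1.42 (log2 fold change 2.32, adjusted p = 0.0298 by limma). Cdk6, Ccnd1 and Cdkn1a were thus lower in CX3CR1- cells, whereas Cdkn2b was higher. The Cdkn2b values were low, and that of CX3CR1+ replicate 3 corresponded to fewer than 3 reads.

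The lists of E2F factors and of the checkpoint had 1 gene each that passed. Of 12 other E2F and DREAM factors, Lin54, the DREAM subunit that binds the CHR, was lower (196 ± 75.6 against 457 ± 60.1, log2 fold change -1.28). Of 17 genes of the S phase and DNA damage checkpoint, Mdm2, the ubiquitin ligase of p53, was lower (783 ± 106 against 1718 ± 24.7, log2 fold change -1.14). Of 6 regulators of macrophage self-renewal tested, 4 passed (66.7%), 2 in each direction. Maf, a factor that restrains division of mature macrophages, was lower at 785 ± 69.0 against 3448 ± 304 (log2 fold change -2.13). Klf2 (log2 fold change 1.24) and Klf4 (1.005) were higher. Myc, a driver of growth, was at 382, 747 and 366 against 444, 437 and 608, and its populations overlapped.

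The 4 cell cycle genes that passed did not rest on the data alike. Mcm3 passed in all 15 alternative fits, with log2 fold changes from -1.53 to -1.12. E2f1 passed in 11 of 15, and in 3 of the 6 fits that left out a library, failing without CX3CR1- replicate 1 (-0.95) and without CX3CR1+ replicates 1 (adjusted p = 0.0823 by limma) or 2 (0.0651). Tpx2 passed in 7 of 14 fits and in 2 of the 6 that left out a library, those without CX3CR1- replicate 2 (adjusted p = 0.0205 by limma) and CX3CR1+ replicate 2 (0.0473). Ccne1 passed in 7 of 14 fits. Of the 6 that left out a library, it passed only without CX3CR1- replicate 2 (adjusted p = 0.0150 by limma). With equal totals without mitochondrial genes, Mcm3 and Ccne1 passed, E2f1 and Tpx2 did not, and Ccnb2 newly passed as higher.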

How the data were processed

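Bulk RNA-seq libraries of total RNA were made with a kit that does not keep the strand. The authors pseudoaligned the reads with Kallisto to GENCODE release M16 (mm10), summarised estimated counts per gene with tximport and normalized them with DESeq2. The version of Kallisto was not given in the sources used here. The deposited values are signal, that is, normalized estimated counts, not divided by gene length. Whole multiples of the smallest step of a library (tolerance 0.01) made up only 42.5 to 44.7% of its values, so no count test was run. That step gave the approximate reads and the value of 3 reads, which cover counting error only.

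Libraries were grouped by the labels. Genes whose mean over the libraries reached 10 (17812, of 26110 with 23 repeated symbols) were tested on log2(value + 1), which understates changes of low genes, with limma 3.58.1 in R 4.3.3 (lmFit, eBayes with intensity trend, two-sided, no covariates). P-values were adjusted by Benjamini-Hochberg over all genes tested. The script was tested on simulated data. The 40 genes and all lists were chosen with earlier results of these data known. All 40 genes are named, with every library for those that passed or differed most in their role, and in each list up to 4 genes per direction with the smallest adjusted p. Single genes of 2 lists are not reported here. Alternatives were pseudocounts, filters on low values, scalings, variance priors, library weights, left-out libraries and a replicate block. Positions, transcript lengths and shared 31-base words came from GENCODE release M21 (GRCm38), and plots from matplotlib 3.10.9.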

Additional observations from a re-analysis of the deposited data

How the results depend on the processing

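The direction of each cell cycle gene that passed was kept in each of the 14 or 15 alternatives that gave it a value. Of 570 values of single genes under alternatives, 542 stayed on their side of the threshold, 18 no longer passed and 10 newly passed. Among the 542, 39 values of 16 genes changed sign without passing in either fit, and 0 genes that passed reversed. With a mean of at least 50, 1232 of all genes were higher, and 0 cell cycle genes were higher and 0 G2 and mitosis genes passed, since Ccne1 and Tpx2 fell under that filter. Quantile normalization gave 0 higher and 5 lower, a median log2 fold change of -0.32 and 2 G2 and mitosis genes. Equal totals without mitochondrial genes gave 2 higher (Ccne1 and Ccnb2), 1 lower (Mcm3) and a median of -0.0027. These scalings moved the median of all genes to -0.15 and 0.16, so the cell cycle genes stayed 0.17 below it, and all genes split into 1716 higher and 1674 lower or 2487 and 1116, against 2177 and 1451. When each library was left out in turn, 0 to 1 were higher, 1 to 4 were lower (1 without CX3CR1+ replicate 1), the median ran from -0.31 to -0.044, and 1 to 3 G1/S and S phase and 0 to 2 G2 and mitosis genes passed. A replicate block of adjacent library numbers gave 0 higher and 4 lower. The labels do not pair these libraries, and the correlations of paired deviations were 0.104, 0.038 and 0.014. Under the alternatives, 2.56 to 12.8% of the cell cycle genes passed, against 15.3 to 23.6% of all genes. The adjusted p alone, with no minimum fold, was added after seeing the data and passed 4 cell cycle genes, against 24.3% of all genes. Depth limits Plk1, Cdc20 and Kif20a most, with values at or under 3 reads in at least 1 library.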

Other observations

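Because Cdkn1a and Mdm2 are both targets of p53, 24 target genes of p53 were described as a list chosen after these values had been seen, so their counts are a description with no test. Of 23 tested, 2 were higher and 3 lower in CX3CR1- cells (21.7%, against 20.4% of all genes), with a median log2 fold change of -0.30. Sesn1, a stress-response gene, was lower at 203 ± 50.3 against 580 ± 103 (SD, n = 3, log2 fold change -1.52), beside Cdkn1a and Mdm2. Gadd45a, a DNA damage response gene, was higher at 141 ± 44.6 against 43.2 ± 18.5 (log2 fold change 1.73). Perp, a gene of epithelial cell adhesion, was at 97.1, 66.2 and 44.9 in CX3CR1- and at 6.01, 0 and 0 in CX3CR1+ libraries, and the epithelial marker sums above are higher in the same libraries. Their part in the values of Perp was not tested.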
